A study of Homo sapiens with 28 samples.

Results

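The CXCL chemokines and CCL20 described here were 10 genes, CXCL1, CXCL2, CXCL3, CXCL5, CXCL6, CXCL10, CXCL11, CXCL14, CXCL16 and CCL20. They were taken by gene name from RNA tables of 23533 genes, with the ChIP-seq peaks that the deposited lists assign to them. No cutoff on a measured value was applied, but the genes were chosen with earlier results of these data known. All samples came from EPC2 cells, an immortalised line of human esophageal epithelium, plated densely in KSFM medium the day before. Cells were left untreated, or received IL-13 (100 ng/ml), vitamin D (100 nM) or IL-13 plus vitamin D at the same doses, each for 6 h. RNA sequencing covered 12 samples, 3 in each of the 4 groups. ChIP-seq covered 16 libraries, 1 per condition, for the histone marks H3K4me3, H3K9ac and H3K27ac in all 4 groups, the transcription factor STAT6 without and with IL-13, and the vitamin D receptor VDR without and with vitamin D. EPC2 is 1 cell line, and whether the 3 RNA samples in each group were separate cultures is not in the labels, so the p-values measure only the spread between those samples, which may be technical.

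Chemokines are small secreted proteins that draw leukocytes to a tissue by binding receptors on their surface. CXCL1, CXCL2, CXCL3, CXCL5 and CXCL6 attract neutrophils through CXCR2, CXCL10 and CXCL11 attract T cells through CXCR3, and CCL20 attracts dendritic cells, B cells and Th17 cells through CCR6. CXCL16 is made as a membrane-bound ligand of CXCR6, and CXCL14 is made by resting epithelia such as skin. Many chemokine genes are induced by the transcription factor NF-kappaB, and CXCL10 and CXCL11 also by interferon. The cytokine IL-13 acts on epithelium through STAT6, and vitamin D through VDR.

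The labelled cell type was checked against marker genes. Of 9 squamous epithelial markers, 8 reached 1 RPKM (read counts scaled to transcript length and library size), and their summed RPKM was 31624 to 36296 across the groups. Of 9 leukocyte markers, 2 reached 1 RPKM, and the list summed to 53.8 and 52.2 without vitamin D (untreated and IL-13) and to 193 and 272 with it (alone and with IL-13). CD14 made most of that difference, with 2.62, 3.67, 132 and 216 RPKM in the same order, while PTPRC, which all leukocytes express, was listed at 0.00214 RPKM or less in every group. CD68, the other leukocyte marker that reached 1 RPKM, was at 50.8, 48.1, 60.5 and 56.4 RPKM and made most of the sums without vitamin D. Of 8 fibroblast markers 1 reached 1 RPKM, with list sums of 6.04 to 15.4, and of 6 endothelial markers 1 did so, with sums of 0.573 to 3.92. The fibroblast sum was 15.4, 10.2, 9.83 and 6.04, again in the order untreated, IL-13, vitamin D and both, and its part in the results was not tested. COL1A1 made nearly all of that sum, with 15.2, 9.84, 9.64 and 5.84 RPKM. COL1A2 was listed at 0.0370 RPKM or less and THY1 at 0 in every group. In such bulk samples fewer cells of a type and less RNA per cell cannot be told apart. The treatments left their known marks: CYP24A1, the vitamin D degrading enzyme, was higher with vitamin D by 9.92 log2 units in the authors' deposited table, and CCL26, an eosinophil chemokine induced by IL-13, was listed at 0.0189 RPKM untreated and 7.85 with IL-13.

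The promoters of 9 of the 10 genes were found in RefSeq's table for the build GRCh38.p14 and are shown because some members fall into families with similar promoters. CXCL16 had no entry. The stretches below run 5′ to 3′ on the strand of the gene, and capitals mark matches to the NF-kappaB consensus on either strand. The first set gives the bases 120 to 21 before the start of the 5 neutrophil-attracting genes, which lie together on chromosome 4, at chr4:73869273-73869372 (CXCL1, plus strand), chr4:74099216-74099315 (CXCL2, minus), chr4:74038710-74038809 (CXCL3, minus), chr4:73998698-73998797 (CXCL5, minus) and chr4:73836558-73836657 (CXCL6, plus).
CXCL1: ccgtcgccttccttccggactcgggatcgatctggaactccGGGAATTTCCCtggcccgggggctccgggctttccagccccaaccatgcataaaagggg
CXCL2: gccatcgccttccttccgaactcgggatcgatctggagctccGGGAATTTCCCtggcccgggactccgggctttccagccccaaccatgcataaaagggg
CXCL3: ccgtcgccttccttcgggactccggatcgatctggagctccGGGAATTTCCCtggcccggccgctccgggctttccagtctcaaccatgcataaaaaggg
CXCL5: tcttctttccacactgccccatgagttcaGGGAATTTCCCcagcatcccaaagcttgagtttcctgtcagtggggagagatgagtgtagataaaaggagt
CXCL6: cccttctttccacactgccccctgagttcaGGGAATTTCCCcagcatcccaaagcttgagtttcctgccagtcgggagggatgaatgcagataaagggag
All 5 held the letters GGGAATTTCC, which overlap a match on the other strand. The match lay 70 to 79 bases before the start of CXCL1 and CXCL3, 69 to 78 before CXCL2, 82 to 91 before CXCL5 and 81 to 90 before CXCL6. Over the 250 bases before the start, aligned end to end, CXCL1 and CXCL3 were identical at 81.4% of aligned positions, CXCL2 and CXCL3 at 73.3%, CXCL1 and CXCL2 at 70.4%, and CXCL5 and CXCL6 at 85.3%, against 44.7% to 46.9% between these subfamilies. The transcripts of CXCL1, CXCL2 and CXCL3 were not compared here. How any reads shared among these genes were counted was not given in the sources used here. Their RNA and ChIP values are therefore uncertain as values of single genes.

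The second set gives all 250 bases before CXCL10 (chr4:76023498-76023747, minus strand) and CXCL11 (chr4:76036071-76036320, minus strand), neighbours that are both known for induction by interferon. Capitals mark NF-kappaB matches and, in CXCL10 only, the interferon-stimulated response element GAAANNGAAA.
CXCL10: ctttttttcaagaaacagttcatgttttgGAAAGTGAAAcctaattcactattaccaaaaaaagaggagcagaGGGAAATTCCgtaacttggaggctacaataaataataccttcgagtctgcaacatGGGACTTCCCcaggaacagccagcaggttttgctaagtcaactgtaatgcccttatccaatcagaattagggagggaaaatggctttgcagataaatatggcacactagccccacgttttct
CXCL11: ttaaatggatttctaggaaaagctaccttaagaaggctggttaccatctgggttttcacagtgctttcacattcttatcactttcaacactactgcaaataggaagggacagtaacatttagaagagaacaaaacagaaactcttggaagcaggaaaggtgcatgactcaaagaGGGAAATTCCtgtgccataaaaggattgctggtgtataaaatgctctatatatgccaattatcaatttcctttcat
CXCL10 held GAAAGTGAAA at 212 to 221 bases before its start, and NF-kappaB matches at 168 to 177 (GGGAAATTCC) and at 113 to 122 (GGGACTTCCC). CXCL11 held 1 NF-kappaB match, GGGAAATTCC, at 67 to 76 bases. Over all 250 bases, CXCL10 and CXCL11 were identical at only 43.9% of aligned positions, beside 44.7% for CXCL11 and CCL20. The third set gives the 150 bases before CXCL14 (chr5:135578992-135579141, minus strand) and CCL20 (chr2:227813692-227813841, plus strand), which had the largest decreases with vitamin D and with IL-13 among the members.
CXCL14: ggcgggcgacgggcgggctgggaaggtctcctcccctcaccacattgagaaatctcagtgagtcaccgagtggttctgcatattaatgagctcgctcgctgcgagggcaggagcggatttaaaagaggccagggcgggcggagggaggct
CCL20: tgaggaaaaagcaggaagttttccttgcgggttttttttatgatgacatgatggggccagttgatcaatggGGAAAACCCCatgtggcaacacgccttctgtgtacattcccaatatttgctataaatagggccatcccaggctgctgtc
CCL20 held an NF-kappaB match on the other strand, GGAAAACCCC, at 70 to 79 bases, and CXCL14 held none in 250 bases. In all, 8 of the 9 promoters matched the NF-kappaB consensus, against 5.05% of 27305 promoters of the same length. The interferon element GAAANNGAAA was found in 1 of the 9, against 3.07%. TTCNNNNGAA, the spacing typical of STAT6 sites, was in none of the 9 and in 5.35% of all promoters, and the VDR direct repeat was in none and in 0.0659%. These are matches of letters in a short window and not measured binding.

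RNA levels of the 10 genes differed widely in this cell line. By the authors' group values in untreated cells, CXCL16 stood at 20.2 RPKM, above 87.9% of all genes, and CXCL14 at 12.1. CXCL10 and CXCL1 followed at 3.73 and 3.72, CCL20 at 1.46 and CXCL11 at 0.869. CXCL3 and CXCL2 stood at 0.390 and 0.358, and CXCL6 and CXCL5 were listed at 0. The deposited tables give 1 value per group and no spread, so whether neighbours in this order differ was not tested. CXCL16 was highest and CXCL14 next in all 4 groups. CCL20, above CXCL11 in untreated cells, was below it with IL-13.

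**Figure D1:**
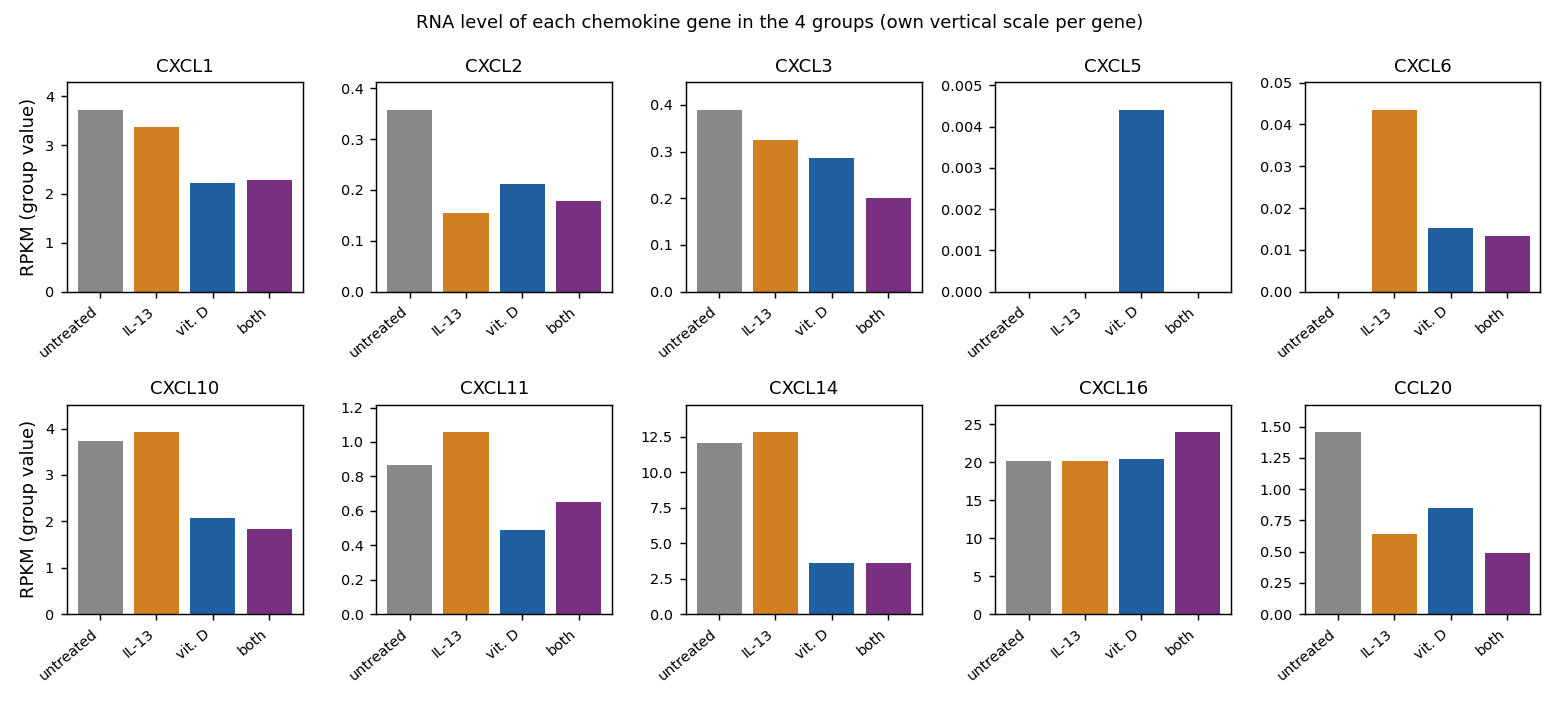
The authors' RPKM value of each gene (vertical axis, own scale for each gene, starting at 0) in the 4 groups, 1 bar per group with no error bar because the tables hold 1 value each. CXCL14 stood at 12.1 and 12.8 without vitamin D and at 3.62 and 3.60 with it, while CXCL16 lay between 20.2 and 24.0.

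Vitamin D lowered 5 of these genes, and IL-13 lowered 1. With vitamin D against untreated cells, 5 of the 8 genes tested fell and none rose in the authors' deposited table at the 0.05 threshold on adjusted p (CXCL1, CXCL10, CXCL11, CXCL14 and CCL20), where 32.5% of all 15177 genes tested were called and 15.1% were called lower. With IL-13 against untreated cells, 1 of the 8 fell, CCL20, where 26.3% of 15172 genes were called and 14% were called lower. With both agents against untreated cells, 4 fell (CXCL1, CXCL10, CXCL14 and CCL20) and 1 rose (CXCL16), against 31.7% of 15971 genes called, 15.7% lower and 16% higher. CXCL5 and CXCL6, both near 0 RPKM, were read as not tested from their adjusted p, by the rule given with the processing. These comparisons share the untreated samples, so their values are given side by side and are not independent of one another.

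The 2 remaining contrasts separate the agents further. Adding IL-13 to vitamin D lowered CCL20 and raised CXCL16 in the authors' deposited table, 2 of 8 genes against 33.2% of 14859 called, 16.9% lower and 16.4% higher. Adding vitamin D to IL-13, derived from the deposited fold changes, lowered CXCL1, CXCL10, CXCL11 and CXCL14 and raised CXCL16, 5 of 8 genes against 24.1% of 14734 called, 11.9% lower and 12.3% higher. The median log2 fold change of the 8 genes was -0.06 with IL-13, -0.56 with vitamin D, -0.62 with both against untreated, -0.09 for both against vitamin D and -0.50 for both against IL-13, beside medians between -0.013 and 0.0027 over all genes tested. Standard errors (SE) were worked back from the fold changes and p-values in the deposited tables.

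**Figure D2:**
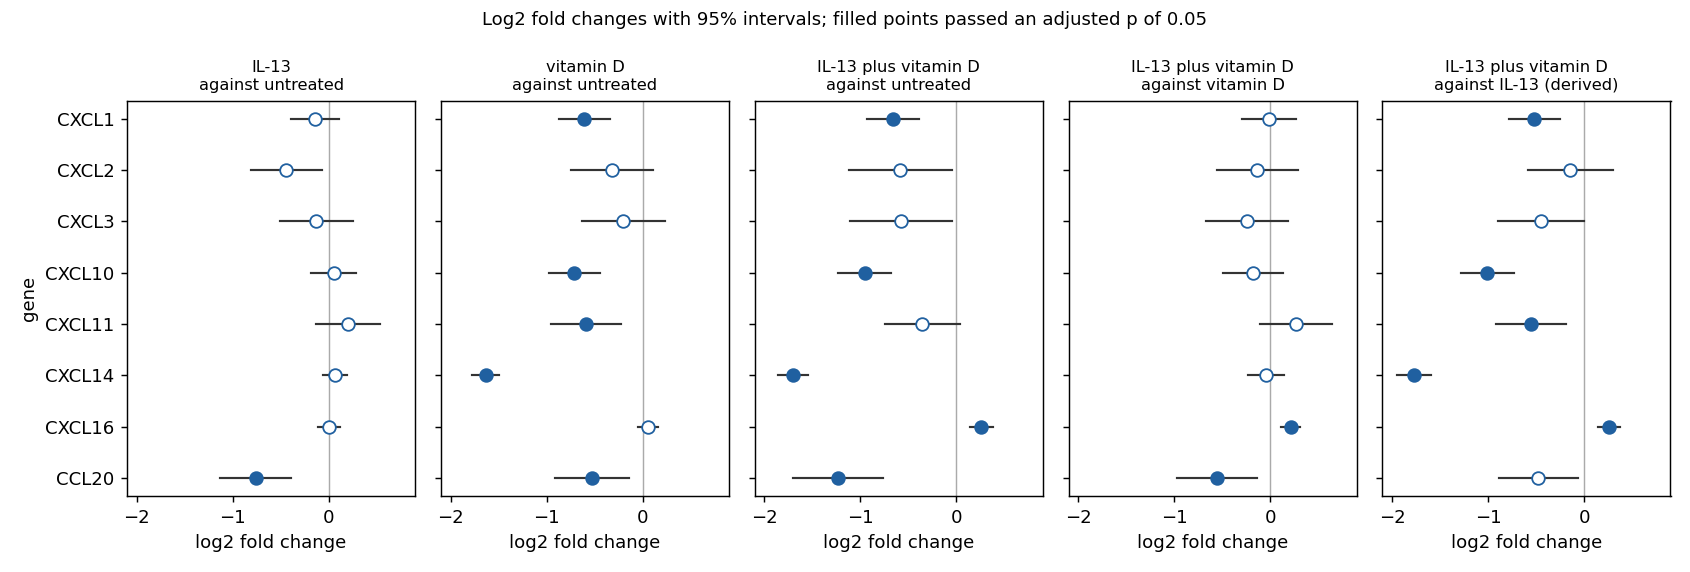
Log2 fold change (horizontal axis) with its 95% interval for the 8 genes tested, in the 4 deposited comparisons and the derived one; filled points passed an adjusted p of 0.05. In the 3 panels that add vitamin D, CXCL14 lies between -1.77 and -1.64 and CXCL10 between -1.01 and -0.71, while CCL20 is the only filled point in the IL-13 panel.

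CXCL1 was the most abundant of the neutrophil-attracting members. Its authors' RPKM was 3.72 untreated, 3.38 after IL-13, 2.23 after vitamin D and 2.28 after both, so the vitamin D groups were the low ones whether or not IL-13 was present. CXCL1 fell with vitamin D by 0.61 log2 units (SE 0.14, adjusted p = 4.97e-05) and with both agents by 0.66 (SE 0.14, adjusted p = 1.03e-05) in the authors' deposited tables. Adding vitamin D to IL-13 gave -0.52 (SE 0.14, adjusted p = 0.000968, z test over all genes on the authors' fold changes). IL-13 alone gave -0.14 (95% interval -0.39 to 0.11) and IL-13 on top of vitamin D -0.01 (-0.29 to 0.27) in the authors' deposited tables, neither past the threshold.

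CXCL2 and CXCL3, whose promoters resemble that of CXCL1, were expressed at much lower levels. The authors' RPKM of CXCL2 was 0.358 untreated, 0.155 after IL-13, 0.211 after vitamin D and 0.178 after both. That of CXCL3 was 0.390, 0.325, 0.287 and 0.202. Both genes were highest in untreated cells, but neither passed the threshold in any comparison. The lowest adjusted p of CXCL2 was 0.0687, for IL-13, with a log2 fold change of -0.44 (95% interval -0.81 to -0.07) in the authors' deposited table. For CXCL3 it was 0.0935, for both agents, with -0.57 (-1.10 to -0.05) in the authors' deposited table. Size estimates for CXCL2 depend on how low values are handled: its RPKM ratio for IL-13 was -0.84 with 0.1 added to each value and -0.23 with 1 added.

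CXCL5 and CXCL6, the other neutrophil attractants, were at the floor of the data. CXCL5 was listed at 0 in 3 groups and at 0.0044 RPKM with vitamin D. CXCL6 was listed at 0 untreated and at 0.0436, 0.0152 and 0.0133 RPKM after IL-13, after vitamin D and after the combination. No fold change is given for either.

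CXCL10 and CXCL11, the interferon-induced members, shared a low level with vitamin D. The authors' RPKM of CXCL10 was 3.73 untreated, 3.92 after IL-13, 2.07 after vitamin D and 1.84 after both. CXCL10 fell with vitamin D by 0.71 (SE 0.14, adjusted p = 2.23e-06) and with both by 0.96 (SE 0.14, adjusted p = 1.65e-10) log2 units in the authors' deposited tables. Set against IL-13 alone, the combination gave -1.01 (SE 0.14, adjusted p = 3.97e-11, the same z test on the authors' fold changes), a level 0.498 times that with IL-13. IL-13 alone gave 0.05 (95% interval -0.18 to 0.28) for CXCL10 in the authors' deposited table.

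For CXCL11 the authors' RPKM was 0.869 untreated, 1.06 after IL-13, 0.490 after vitamin D and 0.651 after both. The vitamin D group was the lowest and the IL-13 group the highest. CXCL11 fell with vitamin D by 0.59 (SE 0.19, adjusted p = 0.00721) in the authors' deposited table, and the combination against IL-13 gave -0.56 (SE 0.19, adjusted p = 0.0153, z test). The combination against untreated did not pass, at -0.35 (95% interval -0.75 to 0.04, adjusted p = 0.177), and IL-13 alone gave 0.20 (-0.13 to 0.53) in the authors' deposited tables.

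CXCL14, a chemokine of resting epithelium, had the largest change of all members. Its authors' RPKM was 12.1 untreated, 12.8 after IL-13, 3.62 after vitamin D and 3.60 after both. The vitamin D groups kept 30.0% and 29.8% of the untreated level. CXCL14 fell by 1.64 log2 units with vitamin D (SE 0.07, adjusted p = 3.77e-111) and fell by 1.70 with both (SE 0.08, adjusted p = 1.2e-98) in the authors' deposited tables. Neither IL-13 contrast passed the threshold: 0.07 alone (95% interval -0.05 to 0.19) and -0.04 on top of vitamin D (-0.23 to 0.15) in the authors' deposited tables, intervals that leave room for changes of at most 0.23 in size.

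CXCL16, the membrane-anchored member and the most abundant, was the only one to rise in any comparison. The authors' RPKM was 20.2 untreated, 20.2 after IL-13, 20.5 after vitamin D and 24.0 after both, so only the group with both agents was higher. CXCL16 rose by 0.26 against untreated (SE 0.06, adjusted p = 8.81e-05) and by 0.21 against vitamin D (SE 0.05, adjusted p = 0.000246) log2 units in the authors' deposited tables. Against IL-13 the rise was 0.26 (SE 0.06, adjusted p = 4.52e-05, z test on the authors' fold changes). Neither agent alone moved it past the threshold, with -0.0013 for IL-13 (95% interval -0.11 to 0.11) and 0.06 for vitamin D (-0.04 to 0.16) in the authors' deposited tables.

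CCL20, the CCR6 ligand, was the only member that fell with IL-13. Its authors' RPKM was 1.46 untreated, 0.640 after IL-13, 0.850 after vitamin D and 0.488 after both, so untreated cells were highest and the combination lowest. CCL20 fell by 0.76 with IL-13 (SE 0.19, adjusted p = 0.000421), by 0.53 with vitamin D (SE 0.20, adjusted p = 0.0249) and by 1.24 with both (SE 0.24, adjusted p = 1.8e-06) log2 units in the authors' deposited tables. On top of vitamin D, IL-13 lowered it by 0.55 (SE 0.21, adjusted p = 0.0311) in the authors' deposited table. On top of IL-13, vitamin D gave -0.48 (95% interval -0.89 to -0.07), which did not pass (adjusted p = 0.0828, z test on the authors' fold changes). Sizes for CCL20 also depend on how low values are handled. Its log2 RPKM ratio for IL-13 was -1.07 with 0.1 added to each value and -0.58 with 1 added.

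Whether vitamin D altered the effect of IL-13 was tested by subtracting its effect alone from its effect on top of vitamin D. None of the 8 members passed this derived z test, where 2.42% of 14734 genes did, and 1 had an unadjusted p under 0.05. That gene was CXCL16, with a difference of 0.21 (95% interval 0.06 to 0.37, adjusted p = 0.154 from the authors' fold changes). For CCL20 the difference was 0.20 (-0.35 to 0.76) and for CXCL14 -0.11 (-0.34 to 0.11). The intervals of CCL20, CXCL2 (-0.25 to 0.87), CXCL3 (-0.69 to 0.46) and CXCL11 (-0.43 to 0.57) were wide. Those of CXCL1 (-0.25 to 0.50) and CXCL10 (-0.62 to 0.16) were somewhat narrower. A difference of moderate size was not detectable for any of these genes.

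Genes with the most similar pattern were found by the distance between log2 ratios to untreated in the 3 treated groups, over 11544 genes. Nearest to CXCL10 were DDIT3, TGM3 and CHAC1, at distances of 0.0993 to 0.128, and nearest to CXCL1 were GPSM2, MLF1IP and TSPAN5, at 0.0574 to 0.0811. CCL20 was nearest to C15orf62, CSF2RB and AOX1, at 0.108 to 0.143. CXCL14 had no close match, with SLC7A11, SULT1E1 and SERPINB11 at 0.452 to 0.489. CXCL16 was nearest to LNPEP, PLXDC2 and TGIF1, at 0.0220 to 0.0358, and CXCL11 to ALDH1L2, JPH1 and STOM, at 0.0651 to 0.0876. These distances rest on 3 ratios that share the untreated group.

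Of 30 other chemokine genes in the tables, 5 reached 1 RPKM in a group. IL8, which also attracts neutrophils through CXCR2, fell with IL-13 by 0.28 and with vitamin D by 0.62 (adjusted p = 0.000862 and 4.12e-14) in the authors' deposited tables, from 11.3 RPKM untreated to 9.31 and 6.94, and stood at 5.07 with both. The signalling receptors of the members were low, with CXCR2 at most 0.405 RPKM, CXCR6 at most 0.111, CCR6 at most 0.0126 and CXCR3 listed at 0. CXCR7, a scavenging receptor of CXCL11 and CXCL12, was at 4.10 RPKM untreated, 3.36 after IL-13, 2.16 after vitamin D and 1.14 after both. In the authors' deposited table CXCR7 fell with vitamin D by 0.81 (adjusted p = 3.85e-13). Among 23 receptor genes, 3 of 6 tested fell with IL-13, and 1 of 7 fell and 1 rose with vitamin D. Of all genes tested, 26.3% were called with IL-13 (14% lower) and 32.5% with vitamin D (15.1% lower).

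The lists that follow hold mostly expressed genes. Among all genes at 1 RPKM or more in a compared group, 40.7% were called with vitamin D and 33.1% with IL-13. Over all genes tested these shares were 32.5% (15.1% lower) and 26.3% (14% lower), and the list counts were not tested against them. Among 23 NF-kappaB factors and regulators, 6 rose and 8 fell with vitamin D in the authors' deposited table. NFKBIA, the inhibitor that holds NF-kappaB in the cytoplasm, rose by 0.66 (adjusted p = 5.59e-93), while BIRC3 fell by 1.24 (adjusted p = 7.71e-61) and NFKBIZ, a nuclear cofactor of NF-kappaB, fell by 0.50 in the authors' deposited table (adjusted p = 1.07e-23). With IL-13, 1 rose and 11 fell. Of 15 interferon signalling genes tested, 7 rose and 2 fell with IL-13, with SOCS1, an inhibitor of JAK signalling, higher by 1.79 log2 units and IRF1, an interferon-response factor, higher by 0.44 (adjusted p = 3.09e-94 and 5.89e-14) in the authors' deposited table. With vitamin D 4 rose and 5 fell. Of 18 tested genes of IL-1, TNF and IL-17 signalling, 11 fell with IL-13, and 7 rose and 3 fell with vitamin D. Of 8 genes of chemokine mRNA decay and shedding, 2 rose and 3 fell with IL-13, and 3 rose and 2 fell with vitamin D. Among them DPP4, a protease that trims CXCL10 and CXCL11, rose with IL-13 by 1.65 in the authors' deposited table (adjusted p = 3.31e-260).

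The histone marks placed the members into groups that did not follow the RNA level. H3K4me3, a mark of active promoters, had a peak within 1 kb of the start of 5 of the 10 genes in all 4 libraries: CXCL1, CXCL2, CXCL3, CXCL14 and CXCL16. Fold enrichment here is the authors' peak value over local background, from 1 library per condition, with no replicate check. In untreated cells it was 38.4 at CXCL1, 37.0 at CXCL2 and 39.7 at CXCL3, although the RPKM of CXCL1 was far above those of the other two. The underlying pileups, the fragments stacked at the summit, were 55 (exact Poisson 95% interval 41.4 to 71.6, for counting error only), 53 (39.7 to 69.3) and 57 (43.2 to 73.9). Among all genes at 0.2 to 0.5 RPKM in untreated cells, 54.5% had such a peak, with a median fold enrichment of 29.5, and 19.8% of the genes were at the value of CXCL2 or more.

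CXCL14 was below those 3 genes in every H3K4me3 library, while CXCL16 was not clearly separate from them. The H3K4me3 fold enrichment at the start of CXCL14 was 11.0 untreated, 7.98 after IL-13, 11.7 after vitamin D and 10.4 after both, in untreated cells above only 7.93% of the genes with a peak at their start. The centred log2 ratios to untreated (less the median of all shared regions) were -0.42 after IL-13, -0.08 after vitamin D and -0.15 after both, from single libraries with pileups of 10 to 18, and none passed 1.5-fold. CXCL14 RNA in the vitamin D groups stood at 30.0% and 29.8% of untreated. At CXCL16 the values were 28.1, 31.9, 39.3 and 33.6, in a region of 1952 bp (hg19 chr17:4641747-4643698) that runs from -475 to 1476 bp around the start. CXCL16 was below CXCL2 and CXCL3 in every library. It was above CXCL1 with vitamin D, where CXCL1 had 37.4, and below it in the other libraries. The untreated pileups of CXCL16, 40 (95% interval 28.6 to 54.5), and of CXCL1, 55 (41.4 to 71.6), had overlapping intervals.

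No peak of any of the 3 marks lay within 1 kb of the start of CXCL5, CXCL6, CXCL10, CXCL11 or CCL20 in any library. For CXCL5 and CXCL6 this went with RNA near 0. CXCL10 was at 3.73 RPKM in untreated cells, and 87.7% of genes between 2 and 5 RPKM had an H3K4me3 peak at their start. CCL20 was at 1.46 RPKM, and 86.7% of genes between 1 and 10 RPKM had one. The nearest H3K27ac summits to CXCL10 in untreated cells lay 10397 to 12273 bp past its start in the direction of transcription, in peaks that the deposited list assigns to ART3, an overlapping neighbour.

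**Figure D3:**
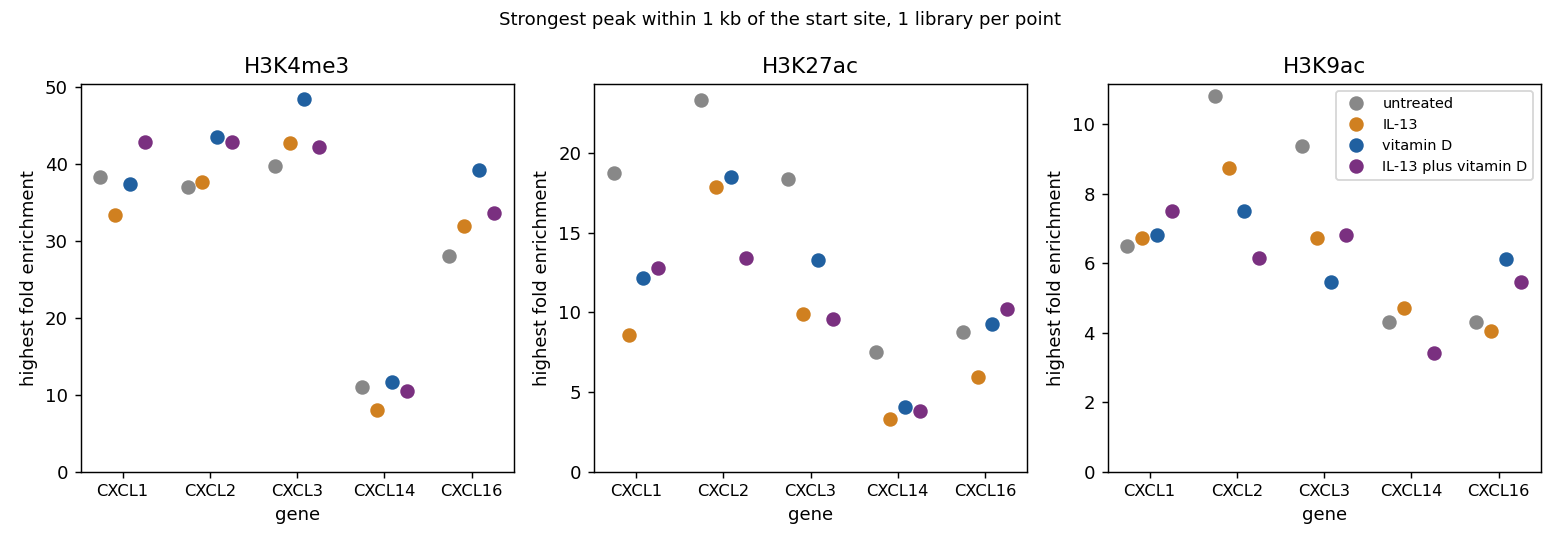
Highest fold enrichment of a peak within 1 kb of the start (vertical axis, from 0) for the 5 genes that had one, in each mark and treatment, 1 point per library and no point where no peak was called. H3K4me3 stands between 33.4 and 48.5 at CXCL1, CXCL2 and CXCL3 and between 7.98 and 11.7 at CXCL14, while the untreated H3K27ac points are the highest at 4 of the 5 genes. The values shown are not centred.

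H3K27ac marks active promoters and enhancers. The untreated H3K27ac library stood apart, with 227905 summits against 126751 to 145395 in the treated ones and a background of 1.40 fragments against 0.512 to 0.731. Ratios to untreated were therefore centred on the median of all shared regions. The 4 libraries gave 26 merged H3K27ac regions at members, 24 of them called in the untreated library and 7, 12 and 12 with IL-13, vitamin D and both. Past 1.5-fold, none was higher and 2 of the 7 regions compared were lower with IL-13 (of all regions 14.5% were past 1.5-fold and 5.56% lower), at the starts of CXCL1 and CXCL14. With vitamin D 1 of 12 was lower (10.3% past 1.5-fold, 4.12% lower), at the start of CXCL14. With both agents 2 of 10 were higher (14.9%, and 9.08% higher), at CXCL16 and at a weak region of CXCL3 upstream of its start.

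At the start of CXCL1, H3K27ac fold enrichment was 18.8 untreated, 8.60 after IL-13, 12.1 after vitamin D and 12.8 after the combination, a centred log2 ratio of -0.65, -0.36 and -0.11. At CXCL14 it was 7.51, 3.31, 4.04 and 3.83, with -0.71, -0.63 and -0.53. At CXCL16 it was 8.76, 5.95, 9.25 and 10.2, with -0.08, 0.34 and 0.67, so the highest centred value was in the group where its RNA was highest. At CXCL1 and CXCL14 the lowest centred value was with IL-13, where their RNA did not pass the threshold. Without centring no region at a member was past 1.5-fold higher. The CXCL16 pileup was 20 untreated and 15 with both. The pileups behind these peaks were small, with 4 (95% interval 1.09 to 10.2) at CXCL14 with IL-13 against 17 (9.90 to 27.2) untreated, from libraries of different depth. What part the depth of the untreated library has in these ratios was not tested.

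H3K9ac, another mark of active promoters, gave 23 regions at members, most of them weak. With IL-13 none of 10 regions passed 1.5-fold (11.4% of all regions). With vitamin D 1 of 9 was lower (11.1%, and 5.46% lower), at the start of CXCL3, with fold enrichments of 9.36 untreated and 5.45 with vitamin D. With both 1 of 11 was lower (12.2%, and 6.5% lower), at the start of CXCL2, with 10.8 and 6.14. Of 6 H3K4me3 regions at members none passed 1.5-fold in any treatment, beside 4.04%, 4.33% and 4.38% of all regions after IL-13, vitamin D and the combination.

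Upstream of CXCL2 lay a long acetylated domain that the deposited lists assign to it. In hg19 it spans chr4:74973376-74981606, 8231 bp that run from -16609 to -8379 bp relative to the start of CXCL2. H3K27ac fold enrichment reached 24.2 there untreated, 15.2 after IL-13, 18.5 after vitamin D and 14.1 after both, close to the 23.4, 17.9, 18.5 and 13.4 at the CXCL2 start itself. The centred log2 ratios of the domain to untreated were -0.20, -0.12 and -0.34, and none passed 1.5-fold. CXCL2 was assigned 30 H3K27ac summits untreated, 21 after IL-13, 28 after vitamin D and 26 after both, more than 88.4% to 93.3% of the genes with any. The untreated library also had the most H3K27ac summits over all genes. At the far end of the domain an H3K4me3 region of 1606 bp (chr4:74979969-74981574) had fold enrichments of 15.1, 10.9, 16.6 and 11.0. Assignment to CXCL2 is by the deposited lists and is not a measured contact.

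**Figure D4:**
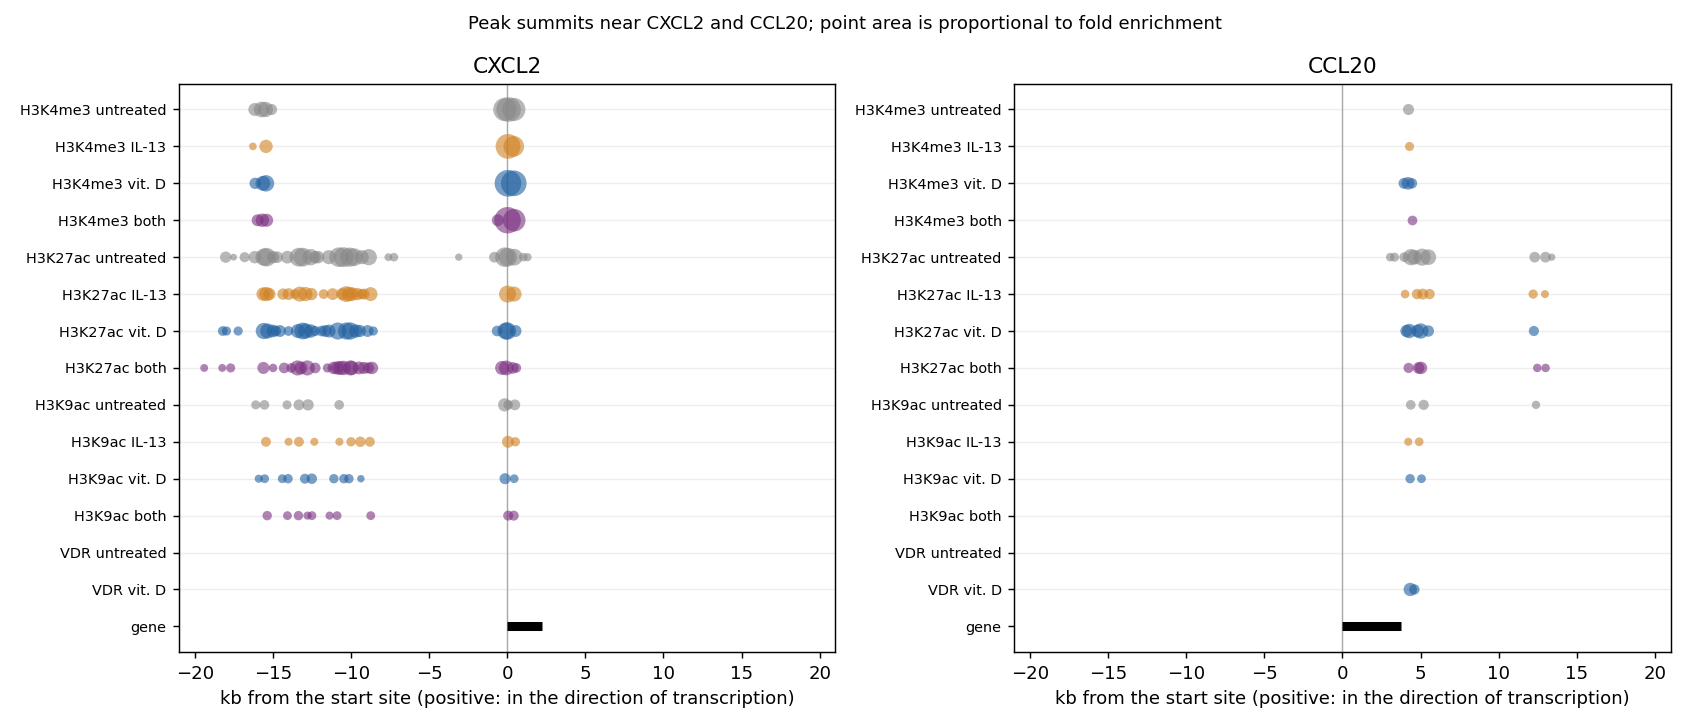
Peak summits within 20 kb of the starts of CXCL2 and CCL20 (horizontal axis, kb from the start, positive in the direction of transcription), 1 row per library, with point area proportional to fold enrichment and the black bar showing the gene. CXCL2 has summits at its start and a cluster between -16609 and -8379 bp, while CCL20 has none at its start and a cluster about 4 kb past it, where VDR summits appear in the vitamin D library only.

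No STAT6 peak was assigned to a member. With IL-13 the authors' lists assign STAT6 peaks to 9.87% of genes and to none of the 10. The nearest STAT6 summit lay 61.3 kb from the start of CXCL16, in an intron of PELP1, and 304 kb or more from the starts of the other 9. For CCL20, the member that fell with IL-13, that distance was 304 kb. The untreated STAT6 library likewise had no peak assigned to a member, beside 0.888% of genes.

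VDR peaks with vitamin D were assigned to 2 of the 10 members and to 23.6% of genes, and without vitamin D to none of the 10 and 6.45% of genes. At CXCL6 the summit lay 14.1 kb before the start, with a fold enrichment of 5.76. At CCL20 it lay 54.3 kb before the start (hg19 chr2:228624099-228624403), with 5.12, at the edge of an H3K27ac region with fold enrichments of 13.4 untreated, 6.61 after IL-13, 13.9 after vitamin D and 8.31 after both. The centred log2 ratios of that H3K27ac region were -0.54, 0.32 and -0.24, and none passed 1.5-fold. The 5 members that fell with vitamin D thus included 1 with an assigned VDR peak, CCL20. For CXCL14, which fell most, the nearest VDR summit was 71.0 kb before the start, with a fold enrichment of 4.34. For CXCL1 the nearest was the CXCL6 peak, 46.9 kb away, and for CXCL10 and CXCL11 it was 505 and 518 kb away.

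CCL20 also had a stronger VDR peak close by that the list assigns to another gene. Its summits lay 4341 and 4606 bp past the start, beyond the end of the gene at 3723 bp, with fold enrichments of 10.9 and 6.64 with vitamin D and no peak there untreated, and the list gives them to WDR69. In the same stretch H3K27ac reached 17.9 untreated, 7.27 after IL-13, 14.4 after vitamin D and 9.58 after both, and H3K4me3 reached 7.54, 5.08, 9.81 and 5.79. The IL-13 library was the lowest for both marks there, but these values were not centred and the untreated H3K27ac library stood apart. CCL20 was the only member with a VDR summit within 10 kb of the gene, beside 21.3% of all genes. Each of these values is from 1 library.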

How the data were processed

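EPC2 RNA and ChIP-seq files were used as deposited. The submitters' processing notes name Trim Galore, STAR, SAMtools, Bowtie, MACS2, GRCh37 and hg19; their versions and settings were not given in the sources used here. RNA came as 4 tables of 23533 genes with a single RPKM for each group, computed by the authors. The tables also hold the authors' log2 fold changes, p-values and adjusted p-values, from a test not given in the sources used here. An adjusted p of 1 was read as not tested. Neither the depth of an RNA sample nor the spread within a group can be read from them. The name of 1 table gives IL-13 as its reference while its columns give vitamin D, and it was used by its columns: its fold changes correlate at 0.973 with the RPKM ratio to vitamin D and at 0.0095 with that to IL-13.

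Standard errors were worked back from deposited fold changes and p-values. The combination against IL-13 was derived as the difference of 2 deposited fold changes, and the difference of IL-13 effects as that of 2 tables sharing no sample. Both used z tests with Benjamini-Hochberg adjustment over 14734 genes. For 11 further genes the tables disagreed by over 0.5 (log2), and these were left out. On simulated data the first found 81% of the simulated shifts of 0.5 and 94% of those of 1, and 14 of 189 calls were false, and the second 72% and 90%, with 11 of 173 false. The simulation gave the 4 groups of a gene 1 known variance and consistent fold changes, and shifted 100 genes at each size. These shares therefore hold under the tests' own assumptions, averaged over all genes, and do not measure how the tests perform on single members.

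ChIP-seq data were peak lists, 1 for each library. Pileup is a signal deposited by the authors: how many fragments cover the summit. Fold enrichment is the authors' ratio of pileup to background, per the file headers, and the -log10 q is deposited too. In the VDR library with vitamin D only 0.0955% of pileups were whole, so they were not compared. Overlapping peaks of the 4 libraries of a mark were merged, and the highest fold enrichment in each was compared with untreated. Peaks belong to genes as the deposited lists assign them. Promoters come from RefSeq (GRCh38.p14), 250 bases before the start, 1 per gene symbol. The analysis ran in Python 3.11.15 with pandas 2.3.3, scipy 1.17.1 and Biopython 1.88.

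The members and the gene lists were chosen with earlier results of these data known. All 10 members are named. From each of 8 lists, at most the 3 genes of largest absolute fold change past the threshold are named, in at most 3 lists per comparison, together with the 3 genes of nearest pattern for each member that changed and the treatment markers CYP24A1 and CCL26. Receptors of the members are named for their level and were chosen after their values were seen. Alternatives were other thresholds, filters, pseudocounts, scalings and windows.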

Additional observations from a re-analysis of the deposited data

How the results depend on the processing

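No paired analysis was possible because the RNA tables hold 1 value per group and no replicate numbers. Leaving out single replicates could not be run for the same reason, and ChIP had 1 library per condition. At an adjusted p of 0.01, 1 member in place of 2 was called for both agents against vitamin D (CXCL16), and 1 likewise among genes at 1 RPKM or more. Counts for the other RNA comparisons stayed within 1.5 times under every alternative run: 4 in place of 5 for vitamin D under either setting and 4 for the derived comparison at 0.01. No called direction reversed when the 40 log2 values were taken from RPKM ratios; 5 moved by over 1 SE with 0.1 added and 14 with 1 added. The H3K27ac count over the 3 treatments, 5, was 13 (all lower) without centring, 0 past 2-fold, 2 at a -log10 q of 10, 10 within 50 kb of the gene and 9 within 10 kb, the last chosen after seeing the data. The H3K9ac count, 2, was 4 by pileup, 0 past 2-fold and 0 at a -log10 q of 10. The 2 STAT6 and VDR regions became 0 at a -log10 q of 10 and 1 within 10 kb. The H3K4me3 count was 0 throughout. The causes were not tested. Single libraries and unknown RNA depth limit every ChIP ratio and low RNA value.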
